A study of Mus musculus with 6 samples.

Results

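Genes that carry lactate, bicarbonate and protons across the membranes of cardiac fibroblasts were examined by RNA-seq after *Tet3* deletion. The 9 genes were *Slc16a1*, *Slc16a3*, *Bsg*, *Slc4a2*, *Slc4a3*, *Slc4a4*, *Slc4a7*, *Car12* and *Car13*. They were selected on their measured difference between the Tet3-deleted and control cells, so their changes in that comparison are a description: no p is given for them, and whether the fit over all genes called them supports nothing. They were found by symbol in a table of 22063 genes, each as a single entry. The cells were primary mouse cardiac fibroblasts carrying floxed *Tet3* alleles. An adenovirus delivered either GFP (3 libraries, the controls) or Cre recombinase (3 libraries, labelled CRE), and both groups then received TGF-β, the cytokine that drives fibroblasts to become myofibroblasts. The Cre vector listed among the study's reagents has a CMV promoter, which is active in most cell types, and encodes EGFP as well. Cre excises DNA lying between loxP sites, and TET3 oxidises 5-methylcytosine in DNA. The mice had a C57BL/6 J background. Their age is not given in the sources used here, and untreated cells are not analysed here.

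Lactate leaves a cell together with a proton through the monocarboxylate carriers, membrane proteins that need a chaperone such as basigin to reach the cell surface. Bicarbonate is moved by the Slc4 family, in which the sodium-coupled carriers bring base into the cell and the chloride exchangers take it out. Carbonic anhydrases interconvert carbon dioxide with bicarbonate and a proton, and so set how fast these carriers can buffer the cytosol and the space around the cell. Glycolytic cells, activated fibroblasts among them, rely on this machinery to shed acid.

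The libraries held between 17002126 and 20343590 counts each, and 3 counts corresponded to between 0.147 and 0.176 CPM (the count scaled to library size) before scaling, counting error only. GFP replicate 1 stood further from the other GFP libraries than these did from each other (a chi-square per degree of freedom over genes of 11.7 and 9.07, against 3.94). *Tet3* itself had 1044, 965 and 1000 counts in GFP and 642, 649 and 637 in CRE, a log2 difference of -0.72 (SE 0.08, adjusted p = 5.36e-05, edgeR's quasi-likelihood test with Benjamini-Hochberg adjustment). All 12 fibroblast markers passed the filter on low counts and 11 fell, their summed level being 41140 to 42453 CPM in GFP and 22546 to 24631 CPM in CRE. Markers of other cells were also present. The sum of 15 endothelial markers went from 1154 to 1217 CPM in GFP to 1017 to 1067 CPM in CRE (12 lower, 1 higher). Most of it was *Eng*, the marker that rose, and the other 14 summed to 517.1 to 576.7 CPM in GFP and 238.0 to 273.0 CPM in CRE. For 11 smooth muscle and pericyte markers it went from 1094 to 1249 CPM to 926.7 to 943.6 CPM (6 lower, 1 higher), most of it *Pdgfrb*. For 10 macrophage markers, of which 6 were tested and 3 fell, it went from 58.7 to 66.6 CPM to 35.1 to 38.5 CPM. Cardiomyocyte markers summed to 0.958 to 1.30 CPM in GFP and 1.90 to 3.11 CPM in CRE (1 of 12 tested, which was higher), with *Myh6* and *Myl7* at 0 in every library. Mesothelial markers summed to 8.51 to 9.75 and 8.50 to 12.4 CPM (5 of 7 tested, 3 higher and 1 lower), and erythroid markers to 0.684 to 2.86 and 1.72 to 2.22 CPM (2 of 7 tested, neither called). The part of these shifts in the values below was not tested. In a bulk sample, fewer cells of a type and less RNA per cell cannot be told apart.

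All 9 genes passed the filter, with at least 44 counts in every library. Of them, 2 were called higher and 7 lower in CRE at an adjusted p under 0.05, where the same fit called 51.2% of 12862 tested genes, 25.5% higher and 25.7% lower. The CRE and GFP libraries did not overlap in CPM for any of the 9, against 59.6% of all tested genes. Because the genes were selected on this contrast, nothing is read from these counts. The median log2 difference was -0.44 over the 9 genes and 0.0052 over all tested genes. The plot of normalised counts shows each library.

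**Figure D1:**
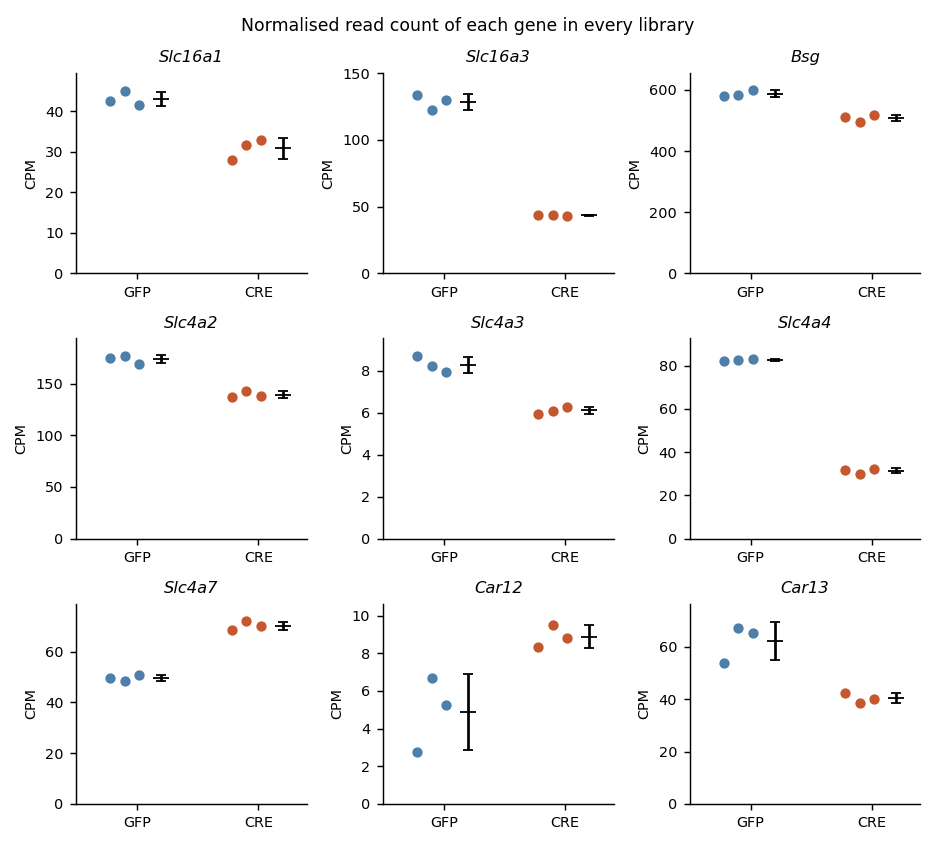
Normalised read count (CPM, linear axis from 0) of the 9 genes in each of the 3 GFP (blue) and 3 CRE (orange) libraries, with the mean and SD as black bars. The CRE points lie below every GFP point in 7 panels and above them for Slc4a7 and Car12, and relative to each panel's own level Slc16a3 and Slc4a4 have the widest gaps.

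*Slc16a3* encodes MCT4, the carrier through which glycolytic cells export lactate. It lies on chromosome 11 (120948480 to 120960868, plus strand, GRCm38). Its level was 133.7, 122.3 and 129.7 CPM in the GFP libraries and 43.7, 43.9 and 42.6 CPM in the CRE libraries. Every CRE library was far under the lowest GFP library, and the CRE libraries lay closer to each other than the GFP libraries did. The mean was 128.6 ± 5.77 CPM (SD, n = 3) in GFP and 43.4 ± 0.70 CPM (SD, n = 3) in CRE, which was 33.8% of the GFP level and a log2 difference of -1.57 (SE 0.05). This was the most negative log2 difference of the 9 genes.

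*Slc16a1* encodes MCT1, which carries lactate, pyruvate and ketone bodies in either direction. The gene lies on chromosome 3 (104638668 to 104658462, plus strand). It stood at 42.5, 44.8 and 41.5 CPM in GFP and at 28.0, 31.7 and 32.9 CPM in CRE. The groups did not overlap, and the lowest CRE library was replicate 1. The mean went from 43.0 ± 1.70 to 30.9 ± 2.58 CPM (SD, n = 3 each), leaving 71.8% of the control level, with a log2 difference of -0.48 (SE 0.07).

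*Bsg* encodes basigin, the glycoprotein that escorts MCT1 and MCT4 to the plasma membrane. The gene is on chromosome 10 (79704491 to 79711969, plus strand). It had 578.9, 583.2 and 600.9 CPM in GFP and 510.5, 496.1 and 516.9 CPM in CRE. The groups were apart by a margin that was small beside the level itself. On average, 587.6 ± 11.6 CPM in GFP stood against 507.8 ± 10.6 CPM in CRE (SD, n = 3 each), which is 86.4% and a log2 difference of -0.21 (SE 0.04). When libraries were scaled by their size alone, the median of all genes moved to 0.17 and *Bsg* was no longer called, at a log2 difference of -0.05, or -0.22 measured from that median.

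On the FPKM scale, which divides by transcript length and so allows a comparison between genes, *Slc16a3* exceeded *Slc16a1* in every library. The ratio of their FPKM within a library was 8.40, 7.004 and 8.19 in GFP and 3.94, 3.66 and 3.42 in CRE. Such a ratio does not depend on how libraries are scaled to each other, and its groups did not overlap. Both genes were selected on this contrast, so nothing is read from that separation, nor from that of any ratio with a selected gene. Its mean went from 7.87 ± 0.75 to 3.67 ± 0.26 (SD, n = 3 each). The summed FPKM of both carriers went from 81.2 ± 4.28 to 34.4 ± 1.37 (SD, n = 3 each), and the share of *Slc16a3* in that sum from 88.7% ± 1.01 to 78.6% ± 1.19 (SD, n = 3 each). Relative to its cargo the chaperone was higher in CRE: the FPKM of *Bsg* was 6.13 ± 0.42 times that of *Slc16a3* in GFP and 15.8 ± 0.69 times in CRE (SD, n = 3 each).

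The promoters of the 2 lactate carriers are shown because both genes were lower in CRE and both windows hold ACGTG. These letters are one form of the core of a hypoxia response element. The windows are from RefSeq (GRCm38.p6) and run from 250 bases before the start site to 50 bases from it. ACGTG on either strand was found in 19.6% of 32851 such windows. The letters include a CpG, and the *Slc16a1* and *Slc16a3* windows hold 42 and 36 CpG against a median of 7. The share is therefore not one for windows of such CpG content. In the *Slc16a1* window ACGTG occurred at 21 on the plus strand and, on both strands at once, at -200 and -199 as the palindrome CACGTG (the E-box, in 7.15% of windows). In the *Slc16a3* window it occurred at -27 and -14. The other 7 windows of the set, those of *Slc4a2*, *Slc4a3* and *Slc4a4* among them, held no ACGTG. Other forms of the core, such as GCGTG, were not searched, so this absence does not extend to them. A match is a description of the letters and not of binding. The stretch of *Slc16a1* is chr3:104638444-104638493, at -220 to -171, and that of *Slc16a3* is chr11:120949017-120949066, at -50 to -1, of which 14 bases lie in an exon of another transcript in GENCODE M21. Both are given 5′ to 3′ on the plus strand with the matches in capitals.
Slc16a1: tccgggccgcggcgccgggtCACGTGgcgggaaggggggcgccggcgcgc
Slc16a3: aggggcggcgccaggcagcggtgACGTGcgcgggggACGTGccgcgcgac

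The chloride/bicarbonate exchangers are the acid loaders of the set. *Slc4a2* encodes AE2, the widely expressed exchanger, and lies on chromosome 5 (24423837 to 24440950, plus strand). It had 175.2, 176.5 and 169.2 CPM in GFP and 136.9, 143.5 and 138.1 CPM in CRE, with no overlap. Its mean was 173.6 ± 3.85 CPM in GFP and 139.5 ± 3.48 CPM in CRE (SD, n = 3 each), or 80.3%, with a log2 difference of -0.32 (SE 0.04). With library size alone the log2 difference was -0.15, or -0.32 measured from the median of all genes. The gene overlaps *Fastk* on the opposite strand by 2511 bases, and whether counting used the strand is not given in the sources used here. *Fastk* had 617, 667 and 648 counts in GFP and 737, 667 and 736 in CRE, a log2 difference of 0.08 (SE 0.07) that was not called.

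*Slc4a3* encodes AE3, an exchanger best known from heart muscle and brain, and lies on chromosome 1 (75546266 to 75562172, plus strand). It was weakly expressed, with 140, 146 and 153 counts in GFP and 111, 110 and 119 counts in CRE. These correspond to 8.70, 8.23 and 7.95 CPM against 5.96, 6.09 and 6.28 CPM. The CRE libraries lay below the GFP libraries by count. The mean of 8.29 ± 0.38 CPM in GFP compared with 6.11 ± 0.16 CPM in CRE (SD, n = 3 each), or 73.7%, with a log2 difference of -0.44 (SE 0.11). The FPKM values did not separate the groups, being 2.67, 2.18 and 1.87 in GFP and 1.47, 1.48 and 2.43 in CRE, and the gene was not called on log2(FPKM + 1) by limma. The FPKM ratio of *Slc4a2* to *Slc4a3* overlapped between groups, at 19.5 ± 3.38 in GFP and 22.8 ± 6.33 in CRE (SD, n = 3 each). The ratio of their counts did not overlap, at 20.1, 21.5 and 21.3 in GFP and 23.0, 23.6 and 21.99 in CRE.

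The sodium/bicarbonate cotransporters, the acid extruders of the set, moved in opposite directions. *Slc4a4* encodes NBCe1, the electrogenic cotransporter, and lies on chromosome 5 (88886818 to 89239653, plus strand). It had 82.2, 82.5 and 83.1 CPM in GFP and 31.7, 30.1 and 32.3 CPM in CRE. The GFP libraries were nearly identical to each other and every CRE library was far below them. Mean levels were 82.6 ± 0.47 CPM in GFP and 31.4 ± 1.15 CPM in CRE (SD, n = 3 each), or 37.97% of the control level, with a log2 difference of -1.40 (SE 0.05).

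*Slc4a7* encodes NBCn1, the electroneutral cotransporter, and lies on chromosome 14 (14702279 to 14799940, plus strand). It had 49.5, 48.3 and 50.7 CPM in GFP and 68.7, 71.9 and 70.0 CPM in CRE. Every CRE library was above every GFP library. It averaged 49.5 ± 1.17 CPM in GFP and 70.2 ± 1.65 CPM in CRE (SD, n = 3 each), or 141.8%, with a log2 difference of 0.50 (SE 0.05).

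The order of the cotransporters per length was therefore exchanged between groups. The FPKM of *Slc4a4* was 10.7, 11.6 and 11.5 in GFP and 5.11, 4.77 and 5.28 in CRE, while that of *Slc4a7* was 6.92, 6.401 and 6.54 in GFP and 10.02, 10.9 and 10.9 in CRE. Within each library the ratio of *Slc4a4* to *Slc4a7* was 1.55, 1.81 and 1.76 in GFP and 0.510, 0.438 and 0.484 in CRE. *Slc4a4* was the more abundant cotransporter in all 3 GFP libraries and the less abundant in all 3 CRE libraries. Their summed FPKM differed less than either gene did, from 17.9 ± 0.23 in GFP to 15.7 ± 0.53 in CRE (SD, n = 3 each), and the share of *Slc4a4* in that sum went from 63.0% ± 1.97 to 32.3% ± 1.68 (SD, n = 3 each). The FPKM lack the scaling behind the CPM, and the median log2(FPKM + 1) difference of all tested genes was 0.13. Summed FPKM, those of the lactate carriers included, therefore show a smaller fall in CRE than CPM would.

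**Figure D2:**
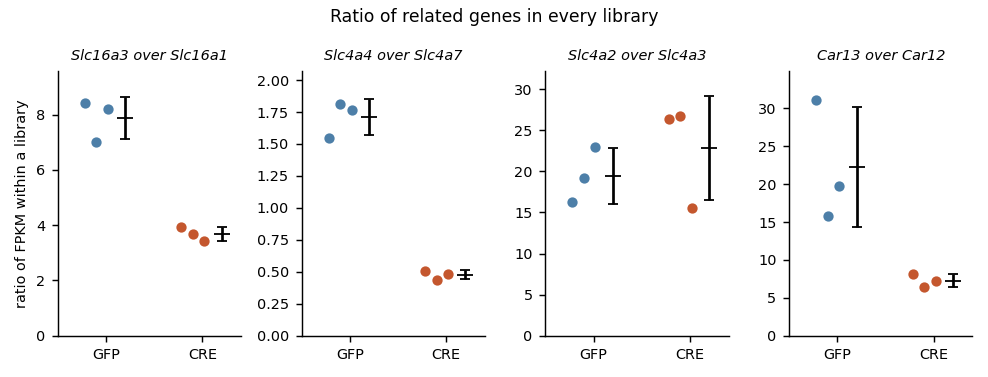
Ratio of the FPKM of 2 related genes within each library (linear axis from 0) for the 3 GFP (blue) and 3 CRE (orange) libraries, with the mean and SD as black bars. The groups are apart for Slc16a3 over Slc16a1, Slc4a4 over Slc4a7 and Car13 over Car12, and overlap for Slc4a2 over Slc4a3. The genes were selected on this contrast, so nothing is read from the separation.

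*Car13* encodes a cytosolic carbonic anhydrase and lies on chromosome 3 (14641727 to 14663002, plus strand). It had 53.8, 67.2 and 65.3 CPM in GFP and 42.5, 38.7 and 40.1 CPM in CRE. GFP replicate 1 was the lowest of its group and still above every CRE library. Means of 62.1 ± 7.25 CPM in GFP and 40.4 ± 1.91 CPM in CRE (SD, n = 3 each) left 65.1%, with a log2 difference of -0.62 (SE 0.08), or -0.71 without GFP replicate 1.

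*Car12* encodes a carbonic anhydrase anchored in the plasma membrane with its active site outside the cell, and lies on chromosome 9 (66713686 to 66766845, plus strand). It had 44, 119 and 101 counts in GFP and 155, 172 and 167 counts in CRE, or 2.73, 6.70 and 5.25 CPM against 8.32, 9.52 and 8.81 CPM. Every CRE library was above every GFP library, and GFP replicate 1 was far below the other GFP libraries. The average was 4.89 ± 2.01 CPM in GFP and 8.88 ± 0.60 CPM in CRE (SD, n = 3 each), or 181.5%, with a log2 difference of 0.85 (SE 0.23), the largest SE of the set. The log2 difference was 0.57 without GFP replicate 1 and 1.13 without GFP replicate 2. The FPKM of *Car13* was 31.2, 15.9 and 19.7 times that of *Car12* in the GFP libraries and 8.11, 6.46 and 7.21 times in the CRE libraries, so the cytosolic enzyme remained the more abundant transcript in all 6.

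The differences of all 9 genes are set side by side in the plot of log2 fold changes. Over the 8 other ways of scaling, filtering or testing and over the 6 fits without a single library, none changed sign, which the selection on the same contrast favours. *Slc16a3* stayed between -1.60 and -1.38, *Slc4a4* between -1.42 and -1.02 and *Slc4a7* between 0.48 and 0.67.

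**Figure D3:**
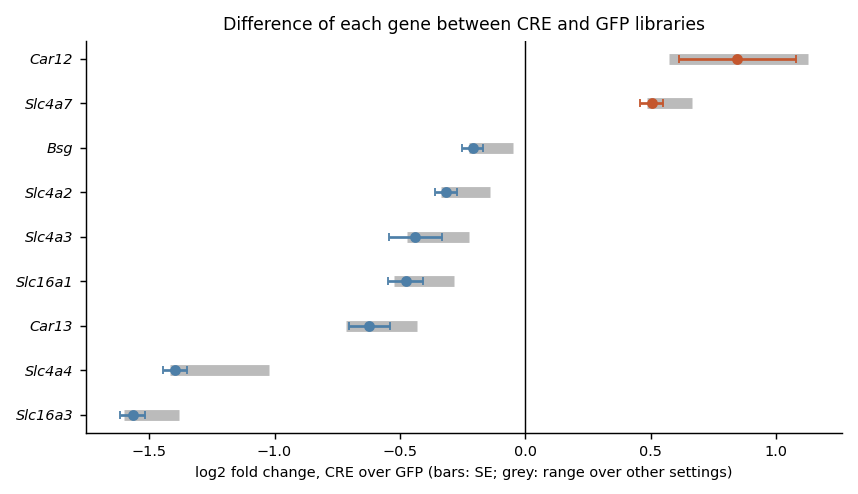
Log2 fold change of CRE over GFP for the 9 genes (edgeR on counts), with the SE as thin bars and, as grey bands, the range over the other settings and over the fits without a single library. Car12 and Slc4a7 lie right of 0 and the other 7 left of it, and the band of Bsg comes closest to 0.

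Ordered by mean FPKM, the GFP libraries gave *Bsg* (440.3), *Slc16a3* (72.0), *Slc4a2* (42.7), *Car13* (25.5), *Slc4a4* (11.3), *Slc16a1* (9.18), *Slc4a7* (6.62), *Slc4a3* (2.24) and *Car12* (1.27), with no overlap between neighbours. In the CRE libraries the order was *Bsg* (425.7), *Slc4a2* (38.7), *Slc16a3* (27.0), *Car13* (18.6), *Slc4a7* (10.6), *Slc16a1* (7.38), *Slc4a4* (5.05), *Car12* (2.58) and *Slc4a3* (1.79). There only *Car12* and *Slc4a3* overlapped among neighbours. In mean FPKM over the 6 libraries, *Bsg* exceeded 99.5% of all genes in the table, and *Car12*, the lowest of the set, exceeded 53.5%.

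The CpG content of the promoters is given because TET3 acts on methylated CpG. RefSeq windows were found for 7 of the 9 genes, 9 windows in all, and none for *Bsg* and *Car13*. The median over 32851 windows was 7 CpG. The windows held 42 CpG for *Slc16a1*, 36 for *Slc16a3*, 37 and 16 for *Slc4a2*, 28 for *Slc4a3*, and 50 and 3 for *Slc4a4*. The genes that were higher in CRE had 9 for *Car12* and 2 for *Slc4a7*, whose RefSeq start site lies 16505 bases inside the gene as GENCODE places it. The second *Slc4a4* window, with 3, lies between these, and its start site is 141148 bases inside the gene as GENCODE places it. With that window included, the counts do not part the genes by direction. Methylation was not measured in these libraries. Neither the AP-1 letters TGANTCA (in 7.81% of all windows) nor the TEAD letters GGAATG (in 14.7%), searched on both strands, were in any of the 9 windows. The 100 bases before the *Car12* start site (chr9:66713586-66713685, plus strand) are shown as the promoter of a gene that was higher in CRE, with each CG in capitals.
Car12: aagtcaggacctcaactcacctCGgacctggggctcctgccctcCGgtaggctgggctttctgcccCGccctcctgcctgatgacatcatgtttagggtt

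A readout that the selection did not use is how counts and FPKM relate. Dividing a gene's count by its FPKM and by the library total gives, after rescaling to kb, the transcript length that the deposited FPKM implies, which moves when reads lie on longer or shorter transcripts of a gene. It was computed for the 8 genes with at least 50 counts in every library, which leaves out *Car12*. *Slc4a4* was the only one whose groups did not overlap, with 7.24, 6.72 and 6.82 kb in GFP and 6.53, 6.71 and 6.48 kb in CRE. Its mean was 6.93 ± 0.27 kb against 6.57 ± 0.12 kb (SD, n = 3 each, exact two-sided permutation p = 0.1, the smallest that 3 against 3 allows, and 0.8 after Benjamini-Hochberg adjustment over the 8 genes). Among 10531 genes with such counts, 14.9% had groups that did not overlap. The other 7 genes gave exact permutation p between 0.2 and 0.9. *Slc16a1* and *Car13* gave 4.43 and 2.30 kb in both groups, the lengths of their single annotated coding transcripts (4426 and 2299 bases). *Slc4a7* also has a single coding transcript in the annotation, of 8132 bases, but gave 7.08 ± 0.30 kb in GFP and 7.01 ± 0.21 kb in CRE (SD, n = 3 each).

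The other genes of the same machinery were taken as whole families, 89 genes in 6 lists, of which 50 had enough counts to be tested and 9 had no count in any library. Of the 50, 13 rose and 11 fell, which is 48% called, beside 51.2% of all tested genes. Those named with values reached 10 CPM on average over the 6 libraries unless stated otherwise, and their adjusted p are from edgeR's quasi-likelihood test with Benjamini-Hochberg adjustment over all tested genes.

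The enzymes that make and use lactate and pyruvate had 3 higher and 3 lower among 8 tested, with a median log2 difference of -0.13. *Ldha*, the lactate dehydrogenase subunit that favours lactate formation, fell from 767.8 ± 33.3 to 474.1 ± 8.79 CPM (SD, n = 3 each), a log2 difference of -0.70 (SE 0.05, adjusted p = 1.56e-06). *Ldhb*, the subunit that favours pyruvate, rose from 7.19 ± 0.38 to 16.2 ± 1.44 CPM (SD, n = 3 each), a log2 difference of 1.17 (SE 0.10, adjusted p = 1.05e-05). Their FPKM ratio, *Ldha* over *Ldhb*, went from 84.1 ± 6.48 to 23.0 ± 1.43 (SD, n = 3 each). The ratio of *Slc16a3* to *Ldha* was 0.156 ± 0.0035 in GFP and 0.0847 ± 0.00072 in CRE on the FPKM scale (SD, n = 3 each), lower in every CRE library than in any GFP library. The pyruvate dehydrogenase kinases, which switch off entry of pyruvate into the mitochondrial cycle, moved in both directions. *Pdk1* fell by 0.81 on the log2 scale (SE 0.05, adjusted p = 1.48e-06) and *Pdk3* fell by 0.32 (SE 0.09, adjusted p = 0.0108), a call that was lost with library size alone (adjusted p = 0.144) and on FPKM (adjusted p = 0.190). *Pdk4* rose by 1.60 (SE 0.08, adjusted p = 4.21e-07) and *Pdk2* was not called at -0.18 (adjusted p = 0.140). Of the dehydrogenase itself, *Pdhb* rose by 0.44 (SE 0.05, adjusted p = 2.91e-05), while *Pdha1* stood at -0.07 (adjusted p = 0.202), a sign that turned with library size alone and on FPKM.

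Among the other monocarboxylate carriers and their partners, 2 rose and 3 fell of 12 tested, with a median of -0.08. *Slc16a4*, whose cargo is not settled, fell by 1.20 on the log2 scale, from 14.7 ± 1.06 to 6.39 ± 1.29 CPM (SD, n = 3 each, SE 0.14, adjusted p = 6.68e-05). *Emb*, the alternative chaperone embigin, was not called at -0.09 (adjusted p = 0.536), nor were the mitochondrial pyruvate carrier subunits *Mpc1* at 0.02 (adjusted p = 0.821) and *Mpc2* at -0.07 (adjusted p = 0.505). With library size alone and on FPKM, *Emb* and *Mpc2* changed sign and *Mpc1* passed the threshold (adjusted p = 0.0342 and 0.0250). Further calls had under 10 CPM and are named after their values were seen. *Slc16a7* (MCT2) fell, with 40, 76 and 58 counts in GFP and 11, 15 and 9 in CRE. *Slc16a9* and *Slc5a8*, the latter a sodium-coupled monocarboxylate carrier, rose by 0.48 and 1.68.

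Among the other bicarbonate carriers and their regulators, 4 rose and 1 fell of 9 tested, with a median of 0.27. *Ahcyl1*, which encodes IRBIT, an activator of NBCe1, fell by 0.37 on the log2 scale, from 410.8 ± 10.7 to 317.2 ± 9.69 CPM (SD, n = 3 each, SE 0.04, adjusted p = 6.49e-05). Its relative *Ahcyl2* rose by 0.68, from 32.7 ± 2.62 to 52.4 ± 3.93 CPM (SD, n = 3 each, SE 0.08, adjusted p = 4.55e-05). *Slc26a2*, chiefly a sulfate carrier, rose by 0.27 (SE 0.06, adjusted p = 0.00342). Under 10 CPM, and named after their values were seen, *Slc4a8* rose by 0.75 and *Slc4a11* by 2.19, the latter with 28, 25 and 27 counts in GFP and 110, 153 and 121 in CRE. *Slc4a11* bears the family's name but is known for carrying protons or water and not bicarbonate.

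Of the other carbonic anhydrases, 2 fell and none rose among 6 tested, with a median of -0.14. *Car8*, a member that lacks catalytic activity, fell by 0.55 on the log2 scale (SE 0.10, adjusted p = 0.00138). *Car6*, a secreted enzyme under 10 CPM that is named after its values were seen, fell by 3.96, with 104, 51 and 70 counts in GFP and 3, 2 and 10 in CRE. *Car9*, the hypoxia-induced relative of *Car12*, had 2, 2 and 7 counts in GFP and 0, 2 and 5 in CRE, too few to be tested.

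The proton exchangers and channels had 4 higher and 2 lower among 12 tested, with a median of 0.08. *Chp1*, a calcium-binding cofactor of sodium/proton exchangers, rose by 0.24 on the log2 scale, from 219.0 ± 6.69 to 259.3 ± 8.58 CPM (SD, n = 3 each, SE 0.05, adjusted p = 0.00131) and the scaffold *Slc9a3r2* by 0.46 (SE 0.07, adjusted p = 3.72e-04). The organellar exchanger *Slc9a8* and the scaffold *Slc9a3r1* were not called, at 0.14 and 0.12 (adjusted p = 0.0676 and 0.393), but each was called with library size alone as the scale, and *Slc9a8* also with upper-quartile scaling (adjusted p = 0.0413) and on FPKM by limma (adjusted p = 0.00794). *Hvcn1*, a voltage-gated proton channel best known from immune cells, fell by 0.65 (SE 0.17, adjusted p = 0.0102), a call that was lost on FPKM (adjusted p = 0.132). The macrophage markers, in sum, moved the same way, and their part in this difference was not tested. *Slc9a2* fell by 0.89 and *Slc9a5* rose by 0.60, both under 10 CPM and named after their values were seen. None of the 3 tested proton and bicarbonate sensors, *Gpr4*, *Asic1* and *Asic3*, was called.

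**Figure D4:**
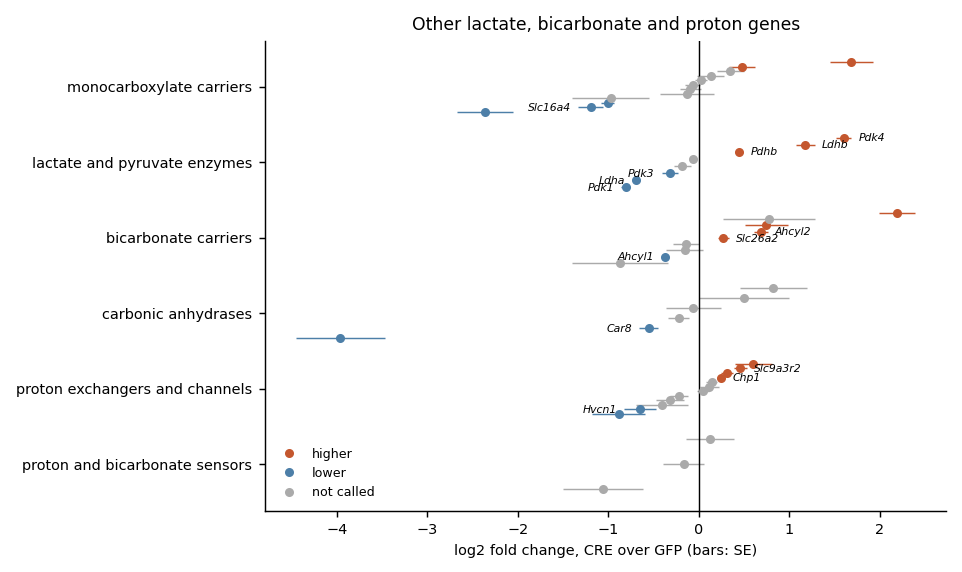
Log2 fold change of CRE over GFP (points, with the SE as bars) for the 50 tested genes of the 6 lists, coloured by call at an adjusted p under 0.05 (edgeR). Most called genes that reached 10 CPM on average are named, and each list other than the carbonic anhydrases and the sensors holds calls on both sides of 0.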

How the data were processed

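RNA-seq of 6 libraries, 3 GFP and 3 CRE, was analysed, with groups and replicate numbers taken from the titles. The study's methods name Trimmomatic for trimming, HISAT2 for alignment to GRCm38, HTSeq-count for the counts and Cufflinks for FPKM. Tool versions are not given in the sources used here, and the labels and the methods name different RNA and library kits, so whether strand was used is unknown. The authors deposited raw counts and FPKM per gene and library in 1 table. Their group means, log2 fold changes, p-values and false discovery rates in it were not used.

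Counts were tested with edgeR 4.0.16 in R 4.3.3 (filterByExpr, minimum count 10 and minimum total 15, TMM, quasi-likelihood test, two-sided, Benjamini-Hochberg over 12862 genes). The SE is the absolute log2 fold change over the square root of F. CPM are counts on the effective library size. Coordinates are from GENCODE M21 and promoter windows from RefSeq. The study calls its 3 replicates biological, but neither it nor the labels say whether a group's libraries came from separate animals or cultures, so p-values measure the spread between these samples. The genes and the lists were chosen with earlier results of these data known. Of the lists, every tested gene with a mean of at least 10 CPM was to be named, at most 8 of each list, and calls outside this rule are marked. A few results that fall under it are not reported here, but their genes are in the counts of each list. Alternatives were RLE, upper-quartile and library-size scaling, 2 other filters, DESeq2 1.42.0, a block for the replicate number, limma 3.58.1 on log2(FPKM + 1), and each library left out. Figures were drawn with matplotlib 3.10.9.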

Additional observations from a re-analysis of the deposited data

How the results depend on the processing

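The 9 genes were selected on this contrast, so their signs and calls over refits of the same values are no sign of stability. None changed direction in the 14 other fits, and 2 were called higher and 7 lower in all but 2 of them. With library size alone *Bsg* was not called, and by limma on log2(FPKM + 1) neither *Bsg* nor *Slc4a3* was. Those 2 settings shift the median of all genes to 0.17 and 0.13 and the share of calls that are higher from 49.8% to 72.6% and 72.2%. They called 5529 and 4976 genes higher and 2083 and 1916 lower, against 3277 and 3306. In the same order, *Emb* turned to 0.067 and 0.074, *Mpc2* to 0.094 and 0.086, and *Pdha1* to 0.095 and 0.093. With each library left out in turn, *Emb* lay between -0.22 and 0.040 and *Mpc1* between -0.024 and 0.060. Among the other listed genes, 10 to 13 were higher and 11 to 12 lower in those fits, 11 and 10 with DESeq2, 19 and 9 with library size alone, and 14 and 8 by limma on FPKM, against 13 and 11. *Tet3* stayed between -0.78 and -0.55. The deviations of same-numbered libraries from their group means had correlations of 0.028, 0.207 and -0.039. Differently numbered libraries were not set beside them, so these values cannot settle whether the numbers pair the samples. With the replicate block, 2 and 7 of the 9 genes, 13 and 11 of the listed genes, and 3260 and 3373 of all genes were higher and lower. The median ratio of implied transcript length, CRE over GFP, was 1 and lay between 0.995 and 1.0001 with each library left out. *Car12* and *Slc4a3* had the lowest counts of the 9, and the cause of the changes between settings was not tested.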
